A study of Homo sapiens with 12 samples.

Results

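The BCL2 family was followed here through 10 of its genes in neuroblastoma cells treated with JQ1. The survival members were BCL2, BCL2L1 and MCL1, the pore formers were BAX and BAK1, and the BH3-only members were BCL2L11, BBC3, PMAIP1, BID and BMF. Every probe set of the array that named exactly 1 gene, and that gene a member, was taken, which gave 48 probe sets of 44988 and 10 genes of 18132. The survival members had 15 probe sets, the pore formers 7 and the BH3-only members 26. A probe set is a group of short probes that together read a stretch of transcript, and its value is given as the log2 of the deposited intensity. Of the 48 member probe sets, 19 were dim, meaning that their mean over the 12 arrays lay below 6.07, the median of such means over all probe sets naming 1 gene. BCL2L11 had 14 probe sets, 11 of them dim, and BCL2 had 6, 4 of them dim.

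RNA came from Kelly and BE(2)-C, established human neuroblastoma cell lines that carry many copies of the MYCN oncogene, BE(2)-C being a clonal line. The groups were Kelly with 1 µM JQ1 for 24 h, Kelly with the solvent DMSO for 24 h, BE(2)-C with 1 µM JQ1 for 24 h and BE(2)-C with DMSO for 24 h, with 3 arrays each. JQ1 occupies the pocket with which the BET proteins hold acetylated chromatin, and all cells grew in the same medium with fetal bovine serum, penicillin, streptomycin and glutamine. Whether each replicate had its own culture is not in the labels, so the p-values reflect only how much these samples varied, and that variation may be technical. In RNA from whole cultures, fewer cells of a type and less RNA per cell cannot be told apart.

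Proteins of the BCL2 family set whether the outer membrane of the mitochondrion stays closed. BAX and BAK1 open it by assembling into pores that release cytochrome c and start the caspase cascade, BCL2, BCL-XL (from BCL2L1) and MCL1 hold them in check, and the BH3-only proteins bind the survival proteins or activate the pore formers. Neuroblastoma cells often rely on BCL2 or MCL1, and BIM, the product of BCL2L11, is the BH3-only protein that BCL2 commonly holds in such cells.

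The promoters of BCL2 and BCL2L11 are shown because these were the members whose leading probe sets, those with the highest mean over the 12 arrays, differed between JQ1 and DMSO by the test used. Both sequences are from RefSeq for the human build GRCh38.p14 and run from 250 bases before the gene's start to 50 bases after it, in the direction of transcription. The BCL2 window is chr18:63319720-63320019 on the minus strand and the BCL2L11 window is chr2:111120664-111120963 on the plus strand. Capitals mark matches, on either strand, to 4 motifs: the E-box CACGTG of MYC and MAX family factors, the cAMP response element TGACGTCA, the FOXO core GTAAACA and the GC box GGGCGG.
BCL2: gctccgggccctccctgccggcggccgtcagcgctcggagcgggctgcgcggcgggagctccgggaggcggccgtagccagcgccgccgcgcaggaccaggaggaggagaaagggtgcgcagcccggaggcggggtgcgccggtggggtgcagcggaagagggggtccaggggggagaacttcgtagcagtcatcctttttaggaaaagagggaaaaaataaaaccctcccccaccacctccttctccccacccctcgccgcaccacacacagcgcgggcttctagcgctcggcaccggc
BCL2L11: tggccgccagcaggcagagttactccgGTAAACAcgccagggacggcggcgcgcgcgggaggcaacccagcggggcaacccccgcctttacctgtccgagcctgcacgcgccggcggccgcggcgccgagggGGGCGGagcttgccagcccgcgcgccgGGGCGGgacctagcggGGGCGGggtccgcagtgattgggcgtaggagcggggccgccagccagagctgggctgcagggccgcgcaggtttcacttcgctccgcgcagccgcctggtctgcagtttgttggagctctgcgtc
The BCL2 window held no match to any of the 4 motifs, which says only that these letters are not in it. The BCL2L11 window held 1 GTAAACA and 3 GGGCGG. Among 35116 promoter windows of the same length, 3.42% held GTAAACA, 45.0% held GGGCGG, 7.26% held CACGTG and 1.85% held TGACGTCA. Of the 10 members, 9 had entries in the table, 15 windows in all. GTAAACA was found in 1 member, GGGCGG in 7, CACGTG in 3 (BAX, BBC3 and BID) and TGACGTCA in 0. The shares over all promoters count windows, and some members had several, those of BID in part overlapping. Of the 15 member windows, 1 held GTAAACA, 10 held GGGCGG, 4 held CACGTG and 0 held TGACGTCA. GC content was 70.7% in the BCL2 window and 74.7% in the BCL2L11 window, against a median of 58.7% over all windows. A match is a description of the sequence and not a binding site.

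Within groups, arrays correlated with each other at 0.952 to 0.996 (Pearson r across probe sets). A log2 difference within a line had a median standard error (SE) of 0.21, and the number of arrays limits this precision. HEXIM1, a gene commonly raised by BET inhibitors, was 1.43 higher with JQ1 in Kelly (limma, adjusted p = 0.000624) and 2.22 higher in BE(2)-C (adjusted p = 7.5e-05). All 8 measured neuroblastoma markers were above the dim limit, and all 4 measured haematopoietic markers were below it. Of these 8, 2 passed in Kelly and 4 in BE(2)-C: TH and DBH, enzymes of catecholamine synthesis, fell by 1.90 and 0.98 with JQ1 in Kelly and by 1.48 and 1.6 in BE(2)-C, where CHGA and PHOX2A were 0.63 and 0.83 higher with JQ1 (limma, adjusted p of 0.000332 to 0.0485). The log2 of the summed intensity of these 8 was 15.51 to 15.58 with JQ1 and 15.53 to 15.67 with DMSO in Kelly, and 15.36 to 15.42 with JQ1 and 15.16 to 15.21 with DMSO in BE(2)-C. Of the 4 epithelial markers 3 were dim, and of the 3 endothelial markers only 1 was dim. No epithelial or endothelial marker passed in a JQ1 comparison. Of the 6 fibroblast or Schwann cell markers 4 were dim. Among these 6, DCN fell by 1.88 with JQ1 in BE(2)-C (adjusted p = 0.00055), and PDGFRB fell by 0.73 in Kelly (adjusted p = 0.0371). The log2 of their summed intensity was 8.68 to 8.85 with JQ1 and 8.43 to 8.92 with DMSO in Kelly, and 8.70 to 8.84 with JQ1 and 9.09 to 9.25 with DMSO in BE(2)-C. The part of these markers in the results was not tested. The hybridization control signal, the mean log2 of 9 probe sets for bacterial transcripts added during array processing, spread from 9.94 to 13.7. It was higher with JQ1 in all 3 same-numbered pairs in Kelly and in 1 of 3 in BE(2)-C. Its slope, fitted beside the groups, passed the threshold for 26 of the 48 member probe sets (54.2%) and for 49.6% of all probe sets. The part of this control signal in the results was not tested. The log2 signal of ACTB at its downstream end minus its upstream end averaged 1.72 with JQ1 and 1.67 with DMSO in Kelly. In BE(2)-C it averaged 0.89 with JQ1 and 0.91 with DMSO. Its part in the results, those between the lines among them, was not tested.

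The survival genes and the death genes were compared for the direction of their JQ1 differences. BCL2 fell and BCL2L11 rose with JQ1 in Kelly, and no other member passed the test in a JQ1 comparison. In Kelly, 3 of the 48 member probe sets passed an adjusted p of 0.05 by limma with Benjamini-Hochberg adjustment over all probe sets: 2 of BCL2L11 were higher (beside 0.958% of all probe sets) and 1 of BCL2 was lower with JQ1 (beside 3.39% of all). Together that is 6.25% of the member probe sets, beside 4.35% of all probe sets, so the share was near the background. In BE(2)-C, 0 of 48 passed, beside 2.81% of all; at an unadjusted p under 0.05, 4 were higher and 3 were lower with JQ1, 14.6% of the members beside 12.5% of all probe sets. For the mean of the effects in the lines, 6 of 48 passed (12.5%, beside 7.53% of all), 3 of BCL2L11 higher (beside 2.47% of all) and 3 of BCL2 lower (beside 5.07%). The JQ1 effect differed between the lines in 0 of 48 by limma, beside 0.327% of all; at an unadjusted p under 0.05 the count was 2 of 48, beside 9.96% of all.

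These counts moved when single arrays were left out. The Kelly count was 1 without replicate 1 or 2 of Kelly JQ1 or replicate 1 or 2 of Kelly DMSO, and 5 without replicate 3 of Kelly DMSO or replicate 1 of BE(2)-C DMSO. The BE(2)-C count was 1 without replicate 3 of Kelly JQ1 and 3 without replicate 1 of BE(2)-C DMSO. The count for the mean of the lines was 3 without any 1 replicate of BE(2)-C JQ1, replicate 1 of Kelly DMSO, or replicate 2 or 3 of BE(2)-C DMSO. Without the 3 arrays of highest control signal (replicate 3 of Kelly JQ1, replicate 3 of Kelly DMSO and replicate 1 of BE(2)-C DMSO), 10 of 48 passed in Kelly, beside 20.2% of all probe sets, 7 in BE(2)-C, beside 10.6%, and 14 for the mean of the lines, beside 26.7%. This setting was chosen after seeing the data.

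By role, the median JQ1 difference of the 15 survival probe sets was 0.17 in Kelly and about 0 (-0.000625) in BE(2)-C. For the 33 probe sets of the death genes, pore formers and BH3-only members together, the medians were 0.17 in Kelly and 0.01 in BE(2)-C. Over all probe sets the medians were 0.05 in Kelly and -0.01 in BE(2)-C. The passing calls in the JQ1 comparisons came from 2 genes.

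**Figure D1:**
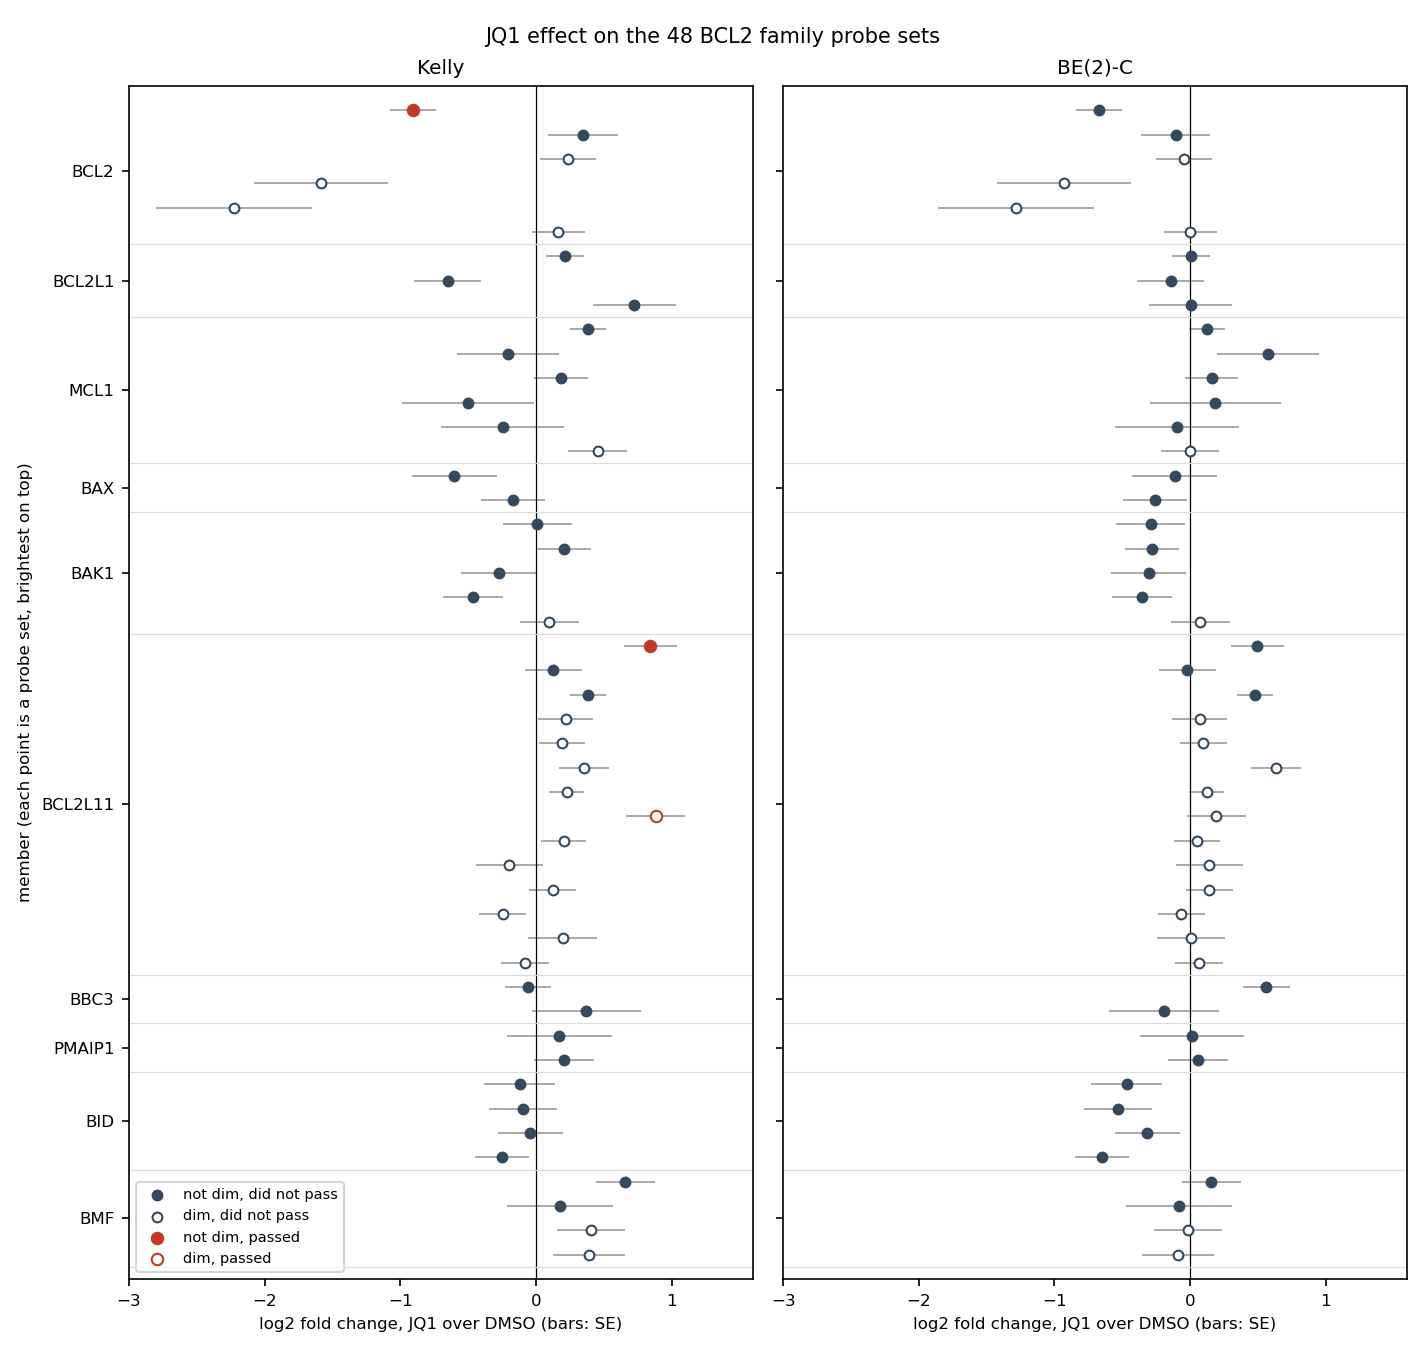
Differences in log2 intensity, JQ1 minus DMSO, with SE for all 48 member probe sets in Kelly and in BE(2)-C (horizontal axis, log2), grouped by gene and role down the page. The lowest values are those of 2 BCL2 probe sets, at -2.23 and -1.58 in Kelly, and the values of most other probe sets lie near 0.

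BCL2, the survival protein after which the family is named, was lower with JQ1 on its leading probe set in both lines. Its leading probe set, 11721375_a_at, read 5.76, 5.77 and 5.83 in Kelly with JQ1, against 6.55, 6.84 and 6.69 in Kelly with DMSO. It read 5.94, 6.27 and 6.11 in BE(2)-C with JQ1, against 6.43, 6.91 and 7.0 in BE(2)-C with DMSO. In each line all 3 JQ1 arrays lay below all 3 DMSO arrays, which held in both lines for 3.59% of all probe sets and for 1 of the 48 member probe sets. BCL2 fell to 0.534 of its DMSO level in Kelly, a log2 difference of -0.90 (SE 0.17, limma adjusted p = 0.0106). The BE(2)-C difference of -0.67 (SE 0.17, 95% interval -1.04 to -0.30) had an adjusted p of 0.0612 and did not pass. The mean over the lines was -0.79 (SE 0.12, adjusted p = 0.00186), and the difference between the lines was 0.23 (SE 0.24, adjusted p = 0.702). The Kelly call was lost without replicate 2 of Kelly DMSO (adjusted p = 0.0518) and held under 19 of the 20 alternatives. The BE(2)-C difference passed without replicate 1 of DMSO (adjusted p = 0.0159) and under 5 of 20 alternatives in all. The slope of this probe set on the control signal was -0.10 (adjusted p = 0.104).

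The other 5 BCL2 probe sets were split by the transcript they were designed from. A pair of dim ones, 11721376_at and 11721377_x_at, was designed from the alpha transcript NM_000633, which encodes the protein with its membrane anchor. Sharing a target, these are not independent of each other. A name ending in _x_at or _s_at, as for 11721377_x_at and the leading probe sets of MCL1 and BCL2L1, marks one that may also read other transcripts. Probe set 11721376_at read 4.48, 5.13 and 4.67 in Kelly with JQ1 against 6.41, 7.17 and 5.45 with DMSO, and 5.16, 5.63 and 5.11 in BE(2)-C with JQ1 against 5.17, 6.22 and 7.30 with DMSO. Probe set 11721377_x_at read 4.12, 4.05 and 4.19 in Kelly with JQ1 against 6.41, 7.36 and 5.27 with DMSO, and 4.93, 5.31 and 4.69 in BE(2)-C with JQ1 against 4.79, 6.83 and 7.16 with DMSO. On both, the Kelly groups were apart with JQ1 below, and the BE(2)-C groups overlapped through the low first DMSO replicate. With the leading one, these made up the 3 of 48 member probe sets with all JQ1 arrays below all DMSO arrays in Kelly, beside 10.9% of all probe sets.

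Averaged over the lines, both alpha transcript probe sets of BCL2 passed, 11721376_at with a difference of -1.26 (adjusted p = 0.0488) and 11721377_x_at with -1.75 (adjusted p = 0.0207). Neither passed in Kelly, where the differences were -1.58 (adjusted p = 0.102) and -2.23 (adjusted p = 0.051), or in BE(2)-C, where they were -0.93 (adjusted p = 0.531) and -1.28 (adjusted p = 0.38). In Kelly 11721377_x_at passed under 8 of 18 alternatives, the replicate number as a block among them (adjusted p = 0.0404), and 11721376_at under 4 of 18. In BE(2)-C 11721377_x_at passed under 3 of 18 and 11721376_at under 1 of 18. Of the arrays left out in turn, 10 cost 11721376_at its call for the mean, all but replicate 3 of Kelly DMSO and replicate 1 of BE(2)-C DMSO, with adjusted p of 0.0699 to 0.117, and quantile normalization cost it too (0.0559). For 11721377_x_at the arrays were replicate 1 of Kelly DMSO (adjusted p = 0.0538), replicate 2 of Kelly JQ1 (0.0523), replicates 1 and 3 of BE(2)-C JQ1 (0.0555 and 0.057) and replicates 2 and 3 of BE(2)-C DMSO (0.0604 and 0.0512). Both moved with the control signal, with slopes of -0.49 (adjusted p = 0.00145) and -0.61 (adjusted p = 0.00035) per unit of log2 signal. With that signal in the model the BCL2 differences averaged over the lines were -0.95 and -1.37, with adjusted p of 0.00541 and 0.000406.

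The remaining 3 BCL2 probe sets did not pass in any JQ1 comparison. Probe sets 11738351_x_at and 11738350_a_at, designed from the beta transcript NM_000657, which lacks the membrane anchor, differed by 0.35 and 0.24 in Kelly and by -0.11 and -0.04 in BE(2)-C. Probe set 11721374_a_at, designed from an expressed sequence tag, differed by 0.17 in Kelly and 0.00 in BE(2)-C. The accession a probe set was designed from does not show that it reads only that transcript. When the probe sets of each gene were averaged, BCL2 fell by 0.66 with JQ1 in Kelly (adjusted p = 0.0375) and differed by -0.51 in BE(2)-C (adjusted p = 0.13).

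**Figure D2:**
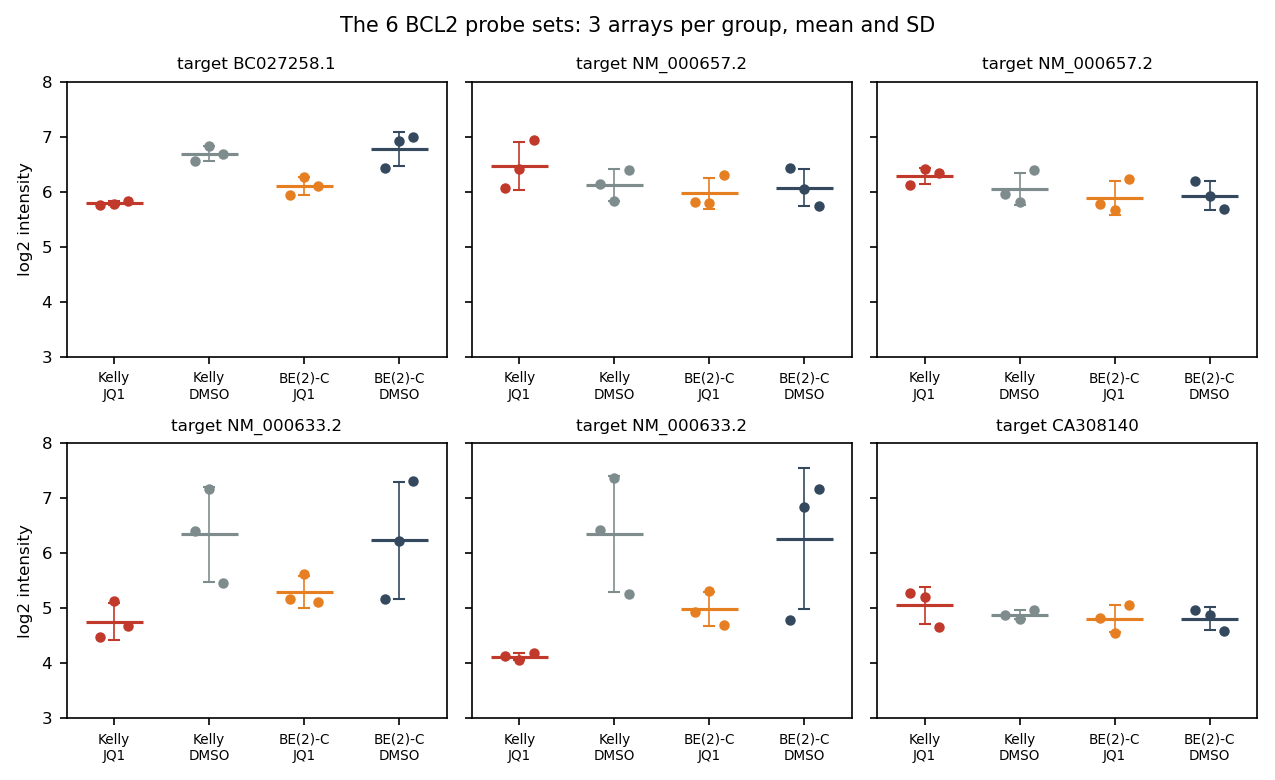
The 6 BCL2 probe sets, 1 per panel titled by the accession it was designed from (BC027258.1 for the leading one), as log2 intensity of each array (points) with the group mean and SD, JQ1 left of DMSO in each line. In Kelly the JQ1 points of 3 probe sets lie wholly below the DMSO points, and on the leading probe set, 11721375_a_at, this holds in BE(2)-C too.

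The other survival members did not pass in a JQ1 comparison of the main fit. Some of their probe sets passed in Kelly under 1 alternative. For MCL1 these were the leading one, higher with JQ1 (limma adjusted p = 0.0443), and 11715484_a_at (0.0475), whose main difference was -0.25. For BCL2L1 they were 11739957_a_at, higher (0.00826), and 11759514_at, lower (0.0195). In BE(2)-C the MCL1 probe set 11715482_a_at, higher with JQ1, passed under 1 alternative (limma adjusted p = 0.00384). The leading MCL1 probe set, 11715483_s_at, read 11.98, 12.20 and 12.06 in Kelly with JQ1, against 11.68, 11.62 and 11.80 in Kelly with DMSO. The BE(2)-C arrays read 11.64, 11.59 and 11.76 with JQ1, against 11.61, 11.56 and 11.45 with DMSO. MCL1, which blocks BAK1 and is degraded quickly, was thus above DMSO on all 3 Kelly JQ1 arrays, and its groups overlapped in BE(2)-C. The differences were 0.38 in Kelly (SE 0.13, adjusted p = 0.134) and 0.12 in BE(2)-C (SE 0.13, adjusted p = 0.972). Its 6 probe sets ranged from -0.50 to 0.46 in Kelly and from -0.10 to 0.58 in BE(2)-C.

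BCL2L1 encodes BCL-XL and, by splicing, the short death-promoting BCL-XS. Its leading probe set, 11739958_x_at, designed from the BCL-XS transcript, read 7.84, 7.75 and 8.14 in Kelly with JQ1 against 7.77, 7.62 and 7.69 with DMSO. The BE(2)-C arrays gave 7.48, 7.51 and 7.42 with JQ1 against 7.56, 7.45 and 7.38 with DMSO. The groups overlapped in both lines. The 3 BCL2L1 probe sets differed in sign in Kelly, at 0.22, 0.72 and -0.65, with adjusted p of 0.389, 0.217 and 0.173.

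The pore formers did not pass in any JQ1 comparison of the main fit on any of their 7 probe sets. The leading BAX probe set, 11742537_a_at, read 9.86, 9.91 and 8.71 in Kelly with JQ1 against 10.25, 10.46 and 9.57 with DMSO, and 9.77, 9.94 and 9.60 in BE(2)-C with JQ1 against 9.60, 9.98 and 10.06 with DMSO. Within each Kelly group the lowest value was that of replicate 3, and these replicates had control signals of 13.7 with JQ1 and 13.3 with DMSO, the highest of the series. The BAX difference was -0.60 in Kelly (SE 0.31, adjusted p = 0.3) and -0.11 in BE(2)-C (SE 0.31, adjusted p = 1). The slope of BAX on the control signal was -0.27 (adjusted p = 0.0117). The Kelly difference of this BAX probe set passed under 1 of 20 alternatives.

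BAK1, which sits in the outer mitochondrial membrane before any death signal, read 7.94, 8.04 and 7.82 on its leading probe set 11752413_a_at in Kelly with JQ1, against 7.90, 7.53 and 8.33 with DMSO. Its BE(2)-C values were 7.50, 7.34 and 7.50 with JQ1, against 8.30, 7.26 and 7.65 with DMSO. The groups overlapped in both lines, with differences of 0.01 (SE 0.25) in Kelly and -0.29 (SE 0.25) in BE(2)-C. The slope of BAK1 on the control signal was 0.20 (adjusted p = 0.0193). Of the 7 probe sets of BAX and BAK1, 3 had all BE(2)-C JQ1 arrays below all BE(2)-C DMSO arrays, with differences of -0.26 to -0.35. Over all 48 member probe sets this held for 7, beside 9.29% of all probe sets.

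**Figure D3:**
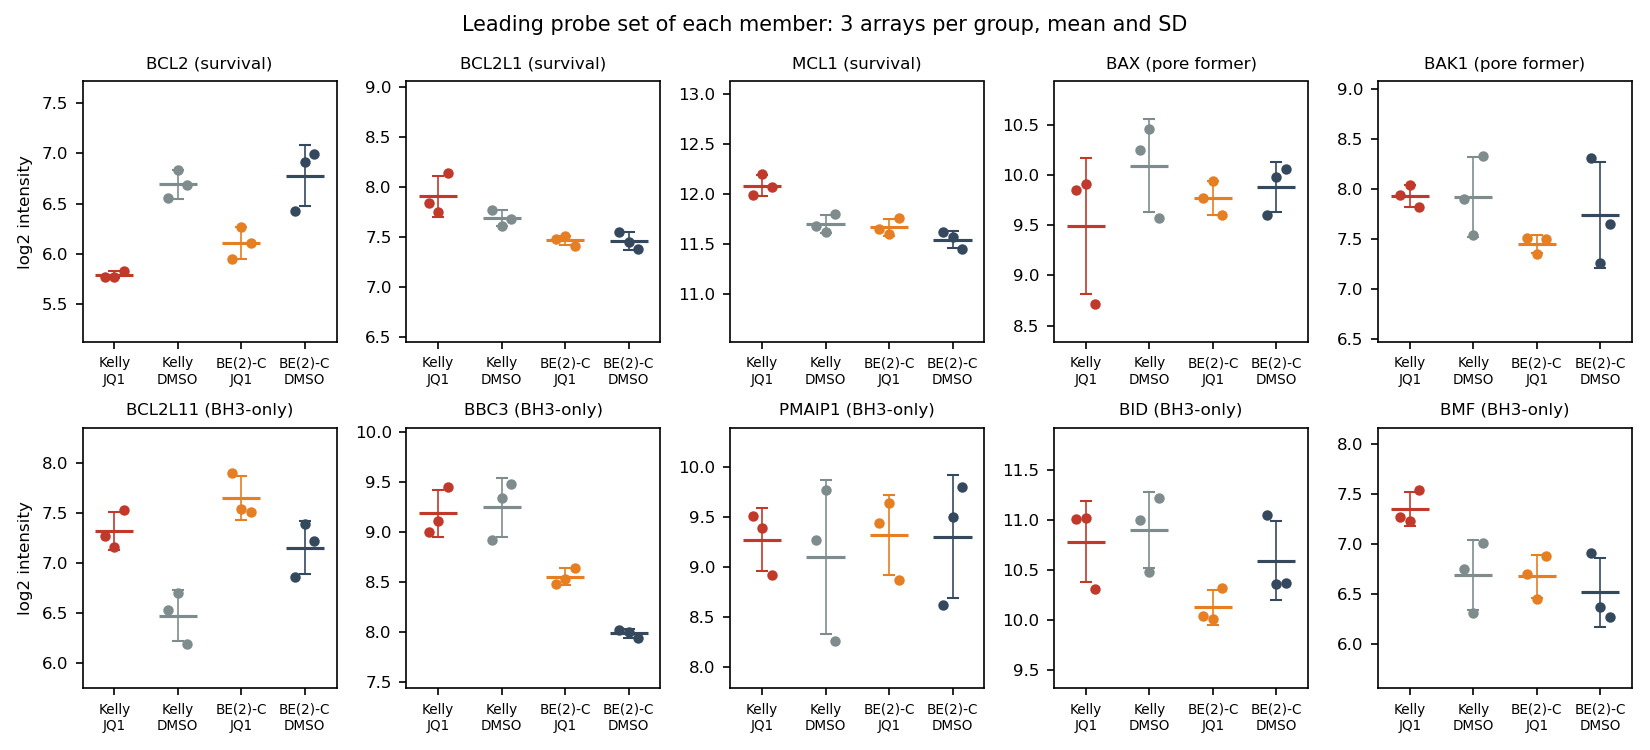
Leading probe set of each of the 10 members, as log2 intensity of each array (points) with the group mean and SD, JQ1 left of DMSO in each line. The JQ1 and DMSO points are apart in both lines for BCL2, where JQ1 is lower, and for BCL2L11, where JQ1 is higher.

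BCL2L11, which encodes the BH3-only protein BIM, was the only death gene among the 7 members of that side to pass in a JQ1 comparison. Its leading probe set, 11718080_a_at, read 7.26, 7.16 and 7.53 in Kelly with JQ1, against 6.53, 6.69 and 6.19 in Kelly with DMSO. Values in BE(2)-C were 7.90, 7.54 and 7.50 with JQ1, against 6.86, 7.38 and 7.21 with DMSO. All JQ1 arrays lay above all DMSO arrays in both lines, which 1.98% of all probe sets did and 3 of the 48 member probe sets, all of BCL2L11. BCL2L11 rose 1.79-fold in Kelly, a log2 difference of 0.84 (SE 0.19, adjusted p = 0.0306). The difference in BE(2)-C was 0.49 (SE 0.19, 95% interval 0.07 to 0.92, adjusted p = 0.279). Averaged over the lines it was 0.67 (SE 0.14, adjusted p = 0.0109), and the lines differed by -0.35 (SE 0.28, adjusted p = 0.627).

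The Kelly call on the leading BCL2L11 probe set depended on the arrays and the model. It was lost without replicate 1, 2 or 3 of Kelly JQ1 (adjusted p = 0.0637, 0.0585 and 0.102), replicate 1 or 3 of Kelly DMSO (0.0961 and 0.0534) and replicate 2 of BE(2)-C JQ1 (0.0504). It was also lost with the 6 arrays of the line alone (adjusted p = 0.0979), with a trended robust prior (0.0553), with the replicate number as a block (0.073) and with the mean of the 14 probe sets (a difference of 0.23, adjusted p = 0.242). Averaged over the lines the leading BCL2L11 probe set passed under every one of 19 probe set alternatives, and the mean of the 14 probe sets, at 0.20, did not (adjusted p = 0.137). Its slope on the control signal was -0.11 (adjusted p = 0.135).

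Further BCL2L11 probe sets passed in one comparison each, while most of the 14 passed in none. The median over the 14 was 0.20 in Kelly, with 11 positive, and 0.11 in BE(2)-C, with 12 positive. Probe set 11751830_a_at, which was not dim, did not pass, and its JQ1 differences were 0.13 (Kelly) and -0.02 (BE(2)-C). The dim 11735895_at, 11753863_s_at and 11763147_x_at had negative Kelly differences, of -0.08, -0.19 and -0.25. Probe set 11718078_a_at, designed from NM_138621, read 6.67 on all 3 Kelly JQ1 arrays, against 6.31, 6.34 and 6.21 with DMSO. Its BE(2)-C values were 7.12, 7.09 and 6.82 with JQ1, against 6.63, 6.49 and 6.49 with DMSO. The groups were apart in both lines. It differed by 0.38 in Kelly (adjusted p = 0.139) and 0.48 in BE(2)-C (adjusted p = 0.0894), and passed for their mean at 0.43 (SE 0.09, adjusted p = 0.0151). That BCL2L11 call was lost without replicate 1 or 2 of BE(2)-C JQ1 (adjusted p = 0.0566 and 0.05) and with the trended robust prior (0.0581).

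The dim BCL2L11 probe set 11762576_at read 6.01, 5.83 and 6.20 in Kelly with JQ1 against 5.64, 5.69 and 5.63 with DMSO, and 5.61, 6.02 and 5.89 in BE(2)-C with JQ1 against 5.51, 4.86 and 5.24 with DMSO. The groups were apart in both lines, and the mean difference of 0.50 passed (adjusted p = 0.038). That call had an adjusted p of 0.0878 with the replicate block, 0.052 with the trended robust prior, and 0.0657 to 0.103 without replicate 1 or 3 of Kelly JQ1, 1 or 2 of Kelly DMSO, 2 or 3 of BE(2)-C JQ1, or 2 or 3 of BE(2)-C DMSO. The dim BCL2L11 probe set 11759889_a_at read 5.86, 6.09 and 5.23 in Kelly with JQ1 against 4.67, 4.99 and 4.89 with DMSO, and 4.87, 5.35 and 4.85 in BE(2)-C with JQ1 against 4.76, 4.87 and 4.85 with DMSO. It passed in Kelly at 0.88 (adjusted p = 0.0419), and in BE(2)-C, where the groups overlapped, it differed by 0.19 (adjusted p = 0.988). Its Kelly call was lost with the 6 arrays of the line alone (adjusted p = 0.146), with quantile normalization (0.104) and, with adjusted p of 0.0579 to 0.173, without replicate 1 or 2 of Kelly JQ1, 1 or 2 of Kelly DMSO, 1 or 3 of BE(2)-C JQ1, or 2 or 3 of BE(2)-C DMSO.

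**Figure D4:**
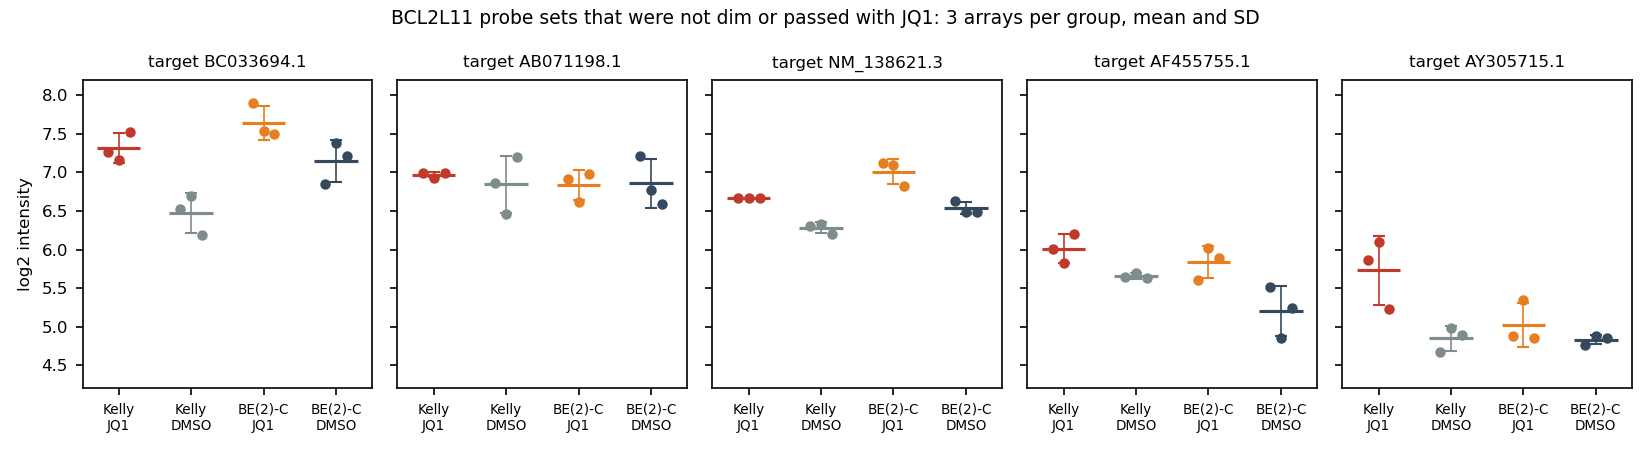
The 3 BCL2L11 probe sets that were not dim and the 2 dim ones that passed in a JQ1 comparison, 1 per panel titled by the accession it was designed from, as log2 intensity of each array (points) with the group mean and SD, JQ1 left of DMSO in each line. On 3 of the 5, all JQ1 points lie above all DMSO points in both lines.

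The other 4 BH3-only members did not pass in a JQ1 comparison of the main fit. BBC3 encodes PUMA, a p53-induced activator of the pore formers. Its leading probe set, 11727707_a_at, read 9.0, 9.11 and 9.45 in Kelly with JQ1 against 8.92, 9.33 and 9.48 with DMSO, and 8.48, 8.53 and 8.64 in BE(2)-C with JQ1 against 8.02, 8.0 and 7.94 with DMSO. The groups overlapped in Kelly, and in BE(2)-C all JQ1 arrays were above all DMSO arrays. BBC3 differed by -0.06 in Kelly (SE 0.17, adjusted p = 0.863) and by 0.56 in BE(2)-C (SE 0.17, adjusted p = 0.128). The BE(2)-C difference passed under 2 of 20 alternatives. The difference between the lines, 0.62 (SE 0.24), had the lowest adjusted p of the 48, 0.441.

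BMF, a BH3-only protein that the dynein light chain DYNLL2 tethers, had the lowest adjusted p in Kelly among the 8 members other than BCL2 and BCL2L11. Its leading probe set, 11737440_a_at, read 7.27, 7.23 and 7.54 in Kelly with JQ1 against 6.74, 6.31 and 7.0 with DMSO, and 6.70, 6.45 and 6.87 in BE(2)-C with JQ1 against 6.91, 6.37 and 6.26 with DMSO. The Kelly groups were apart and the BE(2)-C groups overlapped. BMF differed by 0.66 in Kelly (SE 0.22, adjusted p = 0.125) and by 0.16 in BE(2)-C (SE 0.22, adjusted p = 1). Over 20 alternatives the Kelly difference ranged from 0.43 to 0.82 and passed in 3. The slope of BMF on the control signal was 0.22 (adjusted p = 0.00092). With that signal in the model the Kelly difference was 0.43, the lowest of the range. The part of that signal in the BMF difference was not tested.

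BID, which caspase cleavage turns into an activator of BAX and BAK1, had negative JQ1 differences on all 4 of its probe sets in both lines, none of which passed, and in Kelly each of the 4 turned positive under 1 or more alternatives (quantile normalization among them for the leading one), reaching 0.28 at most. Its leading probe set, 11724046_a_at, read 11.01, 11.02 and 10.31 in Kelly with JQ1 against 11, 10.48 and 11.22 with DMSO, and 10.04, 10.01 and 10.33 in BE(2)-C with JQ1 against 11.05, 10.36 and 10.37 with DMSO. The Kelly groups overlapped, and in BE(2)-C the JQ1 arrays lay just below the DMSO arrays. The 4 probe sets of BID differed by -0.32 to -0.65 in BE(2)-C, with the lowest adjusted p at 0.132 for 11745421_a_at, and by -0.04 to -0.25 in Kelly. The BE(2)-C difference of 11745421_a_at passed under 3 of 19 alternatives.

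PMAIP1, which encodes the MCL1 antagonist NOXA, read 9.5, 9.39 and 8.91 on its leading probe set 11724509_a_at in Kelly with JQ1 against 9.27, 9.77 and 8.26 with DMSO. Its values in BE(2)-C were 9.44, 9.64 and 8.87 with JQ1 against 8.61, 9.49 and 9.79 with DMSO. The groups overlapped in both lines, and the differences were 0.17 (SE 0.39) in Kelly and 0.01 (SE 0.39) in BE(2)-C. The slope of PMAIP1 on the control signal was -0.44 (adjusted p = 4.635e-05). With that signal in the model, PMAIP1 differed by 0.63 in Kelly (adjusted p = 0.0145) and 0.11 in BE(2)-C (adjusted p = 0.76).

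Counted by position, all JQ1 arrays lay above all DMSO arrays in Kelly for 9 of 48 member probe sets, beside 10.8% of all. These were 7 of the 26 BH3-only probe sets, most of BCL2L11 and the rest of BMF and PMAIP1. The others were 2 of the 15 survival ones, both of MCL1, and 0 of the 7 of pore formers. The same held in BE(2)-C for 4 of 48, beside 9.9% of all, all of them BH3-only, of BCL2L11 and BBC3. In BE(2)-C all JQ1 arrays lay below for 7 of 48, beside 9.29% of all. Of these, 3 were BH3-only, all of BID, 3 were of pore formers and 1 was a survival one. Probe sets of the same gene are not independent. The 28 probe sets of the 8 members other than BCL2 and BCL2L11 ranged from -0.65 to 0.72 in Kelly and from -0.65 to 0.58 in BE(2)-C. Their lowest adjusted p was 0.125 in Kelly, 0.128 in BE(2)-C and 0.0842 for the mean of the lines.

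Between untreated lines, BBC3 was the member whose leading probe set differed most. Of the 48 probe sets 3 passed for BE(2)-C against Kelly under DMSO (6.25%, beside 12.3% of all probe sets), and 5 passed without replicate 1 of BE(2)-C DMSO. The leading BBC3 probe set differed by -1.25, lower in BE(2)-C (SE 0.17, adjusted p = 0.000404), with no overlap between the values given above, and its second probe set differed by -0.19 (adjusted p = 0.91). The BCL2L1 probe set 11759514_at read 6.40, 6.27 and 6.20 in BE(2)-C with DMSO against 7.70, 7.14 and 8.09 in Kelly with DMSO, a difference of -1.35 (SE 0.25, adjusted p = 0.00299). With JQ1 it read 5.98, 5.89 and 6.58 in BE(2)-C and 7.18, 7.06 and 6.75 in Kelly. The other BCL2L1 probe sets differed between the lines by -0.23 and 0.19 and did not pass.

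The leading BCL2L11 probe set was 0.68 higher in BE(2)-C than in Kelly under DMSO (SE 0.19, adjusted p = 0.04). This BCL2L11 call was lost in 10 of 18 alternatives, among them the omission of replicate 1 or 2 of Kelly JQ1 (adjusted p = 0.0559 and 0.0521), replicate 1 or 3 of Kelly DMSO (0.0928 and 0.127), replicate 2 or 3 of BE(2)-C JQ1 (0.0585 and 0.0525) and replicate 2 or 3 of BE(2)-C DMSO (0.174 and 0.122). No other BCL2L11 probe set passed between the lines. Probe set 11762576_at went the other way at -0.45 (limma adjusted p = 0.155), 11751830_a_at differed by 0.01, and the median over the 14 was 0.02. The leading BCL2 probe set differed between the lines by 0.09 (SE 0.17, adjusted p = 0.904). The DMSO arrays enter both this comparison and the JQ1 comparisons.

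The genes whose leading probe sets followed the leading BCL2 probe set most closely over the 12 arrays were LRRC34 (Pearson r = 0.966), XRCC4 (0.962) and TOMM40L (0.95). Those nearest to BCL2L11 were SLC38A2 (r = 0.927), ITGB1 (0.92) and STRADA (0.911). These are descriptions over 12 arrays that share lines and treatments.

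The wider family and its machinery were read from leading probe sets. None of 11 other BCL2 family genes, 5 of them dim, passed in a JQ1 comparison by limma, beside 5.52% of all leading probe sets in Kelly and 3.77% in BE(2)-C; at an unadjusted p under 0.05, 1 passed in each line, beside 22.3% of all leading probe sets in Kelly and 15.2% in BE(2)-C. HRK, a neuronal BH3-only gene named after its value was seen, was lower in BE(2)-C than in Kelly under DMSO, with a difference of -1.47 (adjusted p = 0.000693), the 1 of the 11 that passed there, beside 14.2% of all leading probe sets. Of 12 measured genes of the apoptosome, caspases and their inhibitors, CASP6, an effector caspase whose probe set was dim, fell by 0.79 with JQ1 in Kelly (adjusted p = 0.013). BIRC5, which encodes survivin, fell by 0.71 with JQ1 in BE(2)-C (adjusted p = 0.0306) and differed by -0.60 for the mean of the lines (adjusted p = 0.00558), where 1 of the 12 passed beside 9.75% of all leading probe sets. Of 13 mitochondrial partners and regulators 0 passed in Kelly and 6 had an unadjusted p under 0.05 (46.2%, beside 22.3% of all leading probe sets). PPIF, which encodes cyclophilin D of the permeability transition pore, fell by 1.09 with JQ1 in BE(2)-C (adjusted p = 0.00451). For the mean of the lines PPIF fell by 0.75 (adjusted p = 0.00204), USP9X, a deubiquitinase of MCL1, was 0.44 higher (adjusted p = 0.0391), and DYNLL2 was 0.59 higher (adjusted p = 0.0328).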

How the data were processed

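RNA of 12 samples was measured on the Affymetrix PrimeView array. The authors ran RMA, per the submitters' processing notes, a method that adjusts background, brings arrays to a common distribution and combines probes into probe sets. Which RMA version was run is not given in these sources. Deposited was the intensity itself rather than its log2 (medians per array 61.4 to 67.3). Because the design had assumed log2 values, log2 of the deposited intensity was taken with no offset. Since distributions are evened, a change in total RNA is not visible. Detection calls, saturation and signal over background were not given in the files used here.

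Of 49395 probe sets, 102 were controls, 1832 named several genes, 2473 named none and 44988 named 1 gene; symbols were updated through gene identifiers, which matched 99.9%. Means of the 4 groups were fitted to the 44988 over all 12 arrays (R 4.3.3, limma 3.58.1, lmFit and eBayes with no trend). Compared were JQ1 and DMSO within each line, the mean and the difference of these effects, and the DMSO groups of BE(2)-C and Kelly. P-values are two-sided, adjusted by Benjamini-Hochberg over all probe sets, with a threshold of 0.05. The fit was tested on simulated data.

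The members, lists and tests were chosen with earlier results of these data known. Named are all 10 members, with array values for leading probe sets and for those past the threshold in a JQ1 comparison, the 3 genes most like each member that passed in a line, and list genes whose leading probe set passed in a JQ1 comparison. Other lists were other family genes, the apoptosome, mitochondrial partners, transcription factors, p53 targets and cell markers; 1 or more of their symbols are not analysed here. Same-numbered JQ1 and DMSO samples had residuals correlated at 0.42, 0.227 and 0.509 in Kelly, and at -0.0354, 0.537 and -0.749 in BE(2)-C, across probe sets, which are not independent replicates. The rule set for pairing, that every correlation exceed 0.1, was met in Kelly and not in BE(2)-C. In Kelly the ACTB end difference was 1.25, 1.65 and 2.24 in JQ1 replicates 1 to 3, and 1.24, 1.55 and 2.22 with DMSO. In BE(2)-C it was 0.99, 0.85 and 0.83 with JQ1, and 1.24, 0.63 and 0.87 with DMSO. The labels give no pairing, and whether the control signal or another array trait gave these correlations was not tested. The fit was kept without a block. Alternatives were the arrays of 1 line alone, a trended robust prior, quantile normalization, no dim probe sets, leading probe sets alone, averaged probe sets per gene, the replicate block, the control signal as a covariate, and each array left out. Leaving out the 3 arrays of highest control signal was added after seeing the data.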

Additional observations from a re-analysis of the deposited data

Results flagged for a closer look

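The JQ1 effect differed between the lines, by the interaction test of limma, in 2 genes of the fixed lists, neither of them a member of the family. TP53INP1, a p53 target gene that promotes cell death and autophagy, was 3.38 higher with JQ1 in BE(2)-C and 1.08 higher in Kelly, a difference of 2.31 (SE 0.34, adjusted p = 0.0151). Its group means were 9.59 with JQ1 and 6.21 with DMSO in BE(2)-C, and 9.80 with JQ1 and 8.73 with DMSO in Kelly. DCN, a fibroblast marker, fell by 1.88 with JQ1 in BE(2)-C and differed by 0.07 in Kelly, a difference of -1.95 (SE 0.29, adjusted p = 0.0151). Its group means were 4.97 with JQ1 and 6.84 with DMSO in BE(2)-C, and 4.93 with JQ1 and 4.86 with DMSO in Kelly.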

How the results depend on the processing

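The main counts of member probe sets past the threshold were 3 in Kelly, 0 in BE(2)-C, 6 for the mean of the lines, 0 for the difference between lines and 3 for BE(2)-C against Kelly. Leaving out each array in turn gave 1 to 5 in Kelly, 0 to 3 in BE(2)-C, 3 to 7 for the mean, 0 throughout for the difference and 2 to 5 between the lines. The Kelly count was 1 with the 6 arrays of the line alone and 1 with averaged probe sets per gene, and averaging also gave 1 for the mean of the lines and 0 between the lines. For the mean of the lines the count was 3 without dim probe sets and 2 with leading probe sets alone, where fewer members are tested. In BE(2)-C it was 1 with quantile normalization and 1 with leading probe sets alone. Adjusted for the control signal, the counts were 8 in Kelly (4 higher, 4 lower), 7 in BE(2)-C (4 higher, 3 lower) and 13 for the mean (7 higher, 6 lower), while calls over all probe sets grew to 9.15%, 11.7% and 16%. Without the 3 arrays of highest control signal they were 10 in Kelly, 7 in BE(2)-C, 14 for the mean and 6 between the lines. With the replicate block the counts were 3 in Kelly (1 higher, 2 lower), 0 in BE(2)-C, 5 for the mean and 0 for the difference; the calls it changed among members stand beside their results. The cause of these shifts was not tested. None of the 12 member differences past the threshold changed sign under an alternative, while 104 of the 228 that did not pass did so under 1 or more, among them the leading PMAIP1 (-0.25 to 0.63), BID (-0.33 to 0.28) and BBC3 (-0.22 to 0.15) probe sets in Kelly and the leading BCL2 probe set between the lines (-0.02 to 0.26). Single alternative values were tallied for probe sets past the threshold, and for the leading BCL2 and BCL2L11 ones in JQ1 comparisons. Of these values 64 lost the call and 5 gained it, against 197 that kept their side. Calls gained by other probe sets are not in this tally. Signal over background was not given, so 19 dim member probe sets have no measured lower limit.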

Other observations

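Transcription factors known to act on family genes were measured in 12 cases, by leading probe sets. NFKB1, a subunit of the NF-kB factor, fell by 1.48 with JQ1 in Kelly (limma adjusted p = 0.00539) and differed by -0.51 in BE(2)-C (adjusted p = 0.462). STAT3, which relays cytokine signals, was 1.02 higher with JQ1 in BE(2)-C (adjusted p = 0.00562) and 0.18 higher in Kelly (adjusted p = 0.531). Neither effect differed between the lines by the interaction test (adjusted p = 0.404 and 0.221). MYCN, the amplified oncogene of these lines, differed by -0.34 in Kelly (adjusted p = 0.146) and -0.33 in BE(2)-C (adjusted p = 0.238), and passed for the mean of the lines at -0.34 (adjusted p = 0.0336). FOXO3, whose core motif was searched in the promoters, differed by -0.07 in Kelly and by 0.85 in BE(2)-C (adjusted p = 0.867 and 0.064).

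Of 13 measured p53 target genes outside the family, 4 passed in Kelly, 2 in each direction (30.8%, beside 5.52% of all leading probe sets), and 2 in BE(2)-C, 1 in each direction (15.4%, beside 3.77%). In Kelly TP53I3 was 1.15 higher with JQ1 (adjusted p = 0.0132), while TNFRSF10B, a TRAIL death receptor, fell by 1.64 (adjusted p = 0.00141) and ZMAT3 fell by 1.14 (adjusted p = 0.0329). In BE(2)-C AEN, an apoptosis-enhancing nuclease, fell by 1.32 with JQ1 (adjusted p = 0.0128). For the mean of the lines SESN2 was 0.64 higher (adjusted p = 0.0141) and MDM2, the ligase that degrades p53, fell by 0.57 (adjusted p = 0.0395). Under DMSO, 9 of the 13 differed between the lines, 1 higher and 8 lower in BE(2)-C, beside 14.2% of all leading probe sets; TNFRSF10B differed by -4.0, lower in BE(2)-C (adjusted p = 2.31e-07).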
